A study of Arabidopsis thaliana and Lotus japonicus with 44 samples.

Results

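The comparison described here was the difference between the nutrient responses of 2 Arabidopsis thaliana genotypes, line 308 and Col-0, taken over 16 of the 44 root RNA-seq libraries of the study. The libraries were chosen by their labels and not by any measured value. Col-0 is the wild type. Line 308 is 1 transgenic line in the Col-0 background that carries *IPD3-Min*, a shortened form of the Medicago truncatula transcription factor IPD3 that retains its DNA-binding domain, under the constitutive Arabidopsis *UBIQUITIN10* promoter and beside an mCherry marker. Because it is a single line, an effect of the transgene product and an effect of the insertion site cannot be told apart. Plants were 6 weeks old, every library was made from the pooled roots of several seedlings of a plate, and all 16 received spores of the arbuscular mycorrhizal fungus (AMF) Rhizophagus irregularis shortly before sampling. There were 3 libraries of line 308 on low-nutrient (LN) medium, 4 of line 308 on 1/2 MS medium, 5 of Col-0 on LN medium and 4 of Col-0 on 1/2 MS medium. LN medium holds less nitrogen, phosphorus and potassium than 1/2 MS, the standard medium. The labels do not say whether the libraries of a group came from independent cultures, so p-values measure the spread between these libraries, and counts of transcripts of *IPD3-Min* were not analysed here.

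In host plants such as Medicago, IPD3 (CYCLOPS in Lotus) is phosphorylated by a calcium-dependent kinase of the common symbiosis pathway and switches on genes needed for colonization by the fungus. Arabidopsis belongs to a lineage that has lost this pathway and does not form arbuscular mycorrhiza. In a phosphate-starved root, the factor PHR1 raises phosphate transporters, phosphatases and lipid-remodelling enzymes. Mycorrhizal fungi supply a host with nutrients, chiefly phosphate. The question addressed by the interaction is whether roots that express the symbiotic factor respond to nutrient depletion as wild-type roots do. An interaction is given below on the log2 scale as the response of line 308 (LN over 1/2 MS) minus the response of Col-0, so that a negative value means that LN medium moved a transcript less upwards, or further downwards, in line 308 than in Col-0. Anything that changed a transcript by the same factor in both genotypes is removed by this difference.

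Library totals ran from 13125046 to 14790061 counts, and levels are given as CPM, counts scaled to the size of the library after TMM adjustment. The library labelled Col-0 LN replicate 5 stood apart. Its log2 CPM lay nearer to the mean of the line 308 LN libraries than to the mean of its own group's other libraries for 60.4% of all transcripts tested, against 26.8% to 29.7% for the other 4 Col-0 LN libraries. Its genotype was checked with 11 transcripts that separated the genotypes by at least 3-fold without overlap in the 16 libraries on 1/2 MS with and without AMF, all higher in line 308. For 10 of these 11 it lay below every line 308 LN library, among them *AT1G75945* at 0 CPM against 24.3 to 31.4 CPM in line 308 on LN, and a *UBQ10* isoform at 0.475 CPM against 1.78 to 3.54 CPM. The library was kept in the results, and the counts of called transcripts, by shape of response, list and motif, were also made without it. Of the 16 file names, 3 lack a prefix carried by the others (line 308 LN replicate 3 and Col-0 LN replicates 1 and 3), and what the prefix marks is not stated. Markers of the expected root cell types were present in all groups. Transcripts of photosynthesis genes, as a check for shoot material or greening, summed to 454 to 668 CPM in line 308 on LN, 982 to 1462 CPM in line 308 on 1/2 MS, 813 to 1026 CPM in Col-0 on LN and 2340 to 2688 CPM in Col-0 on 1/2 MS over 18 genes, of which 2 to 5 had no count in a group. Their part in the results below was not tested.

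Of 16925 transcripts tested, 902 (5.33%) passed an adjusted p of 0.05 for the interaction, 435 (2.57%) with a positive and 467 (2.76%) with a negative difference. At an unadjusted p under 0.05 there were 3998 (23.6%). The called differences had a median size of 0.92 on the log2 scale, 413 of them reached 2-fold and 107 reached 4-fold, and the median over all transcripts tested was 0.02. Without Col-0 LN replicate 5, 2734 transcripts (16.2%) were called, 8.14% of those tested with a positive and 8.01% with a negative difference. That library was singled out because, for most transcripts tested, it lay nearer to the other genotype on LN than to its own group. Leaving it out tends to widen the gap between the genotypes on LN, so a rise in calls follows from the choice itself. All results given without this library therefore describe its influence and are not independent support for the results with it. Over the 14317 transcripts with a mean of at least 10 counts, the fitted responses of the genotypes correlated with Pearson's r = 0.80, a value across transcripts, which are not independent replicates.

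**Figure D1:**
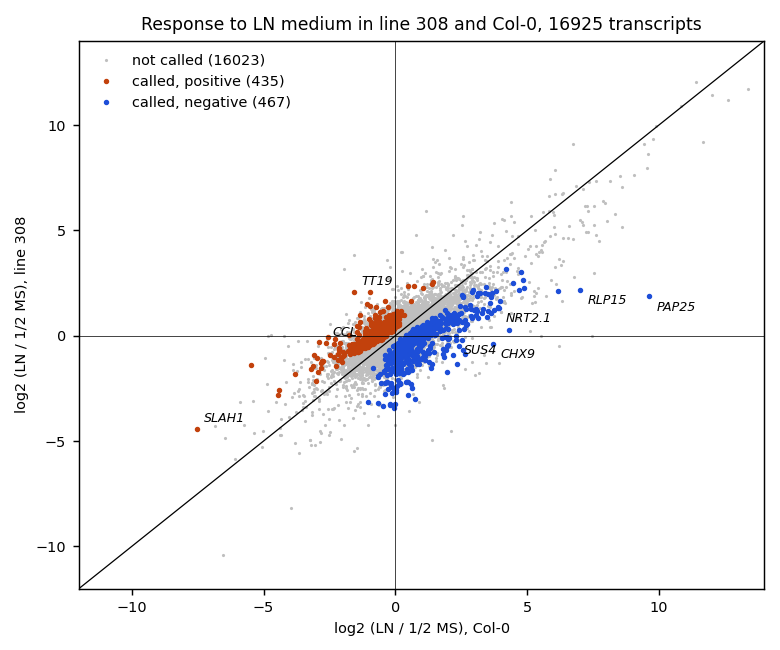
Fitted response to LN medium (log2 of LN over 1/2 MS) of each tested transcript in Col-0 (horizontal axis) and in line 308 (vertical axis). Points on the diagonal have equal responses. The 435 called positive transcripts (orange) lie above the diagonal and the 467 called negative transcripts (blue) below it, with PAP25 farthest to the right among the called transcripts.

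By the fitted values, the called transcripts fell mostly on the side of a larger response in Col-0. The response was larger in Col-0 for 573 of the 902 (63.5%, against 53.3% of all transcripts tested) and larger in line 308 for 329. Of the 573, 280 lay higher on LN than on 1/2 MS in Col-0 by more than in line 308, and 293 lay lower on LN by more than in line 308. In 466 of the 902 the fitted responses had opposite signs (51.7%, against 29.4% of all tested). Transcripts were called by the difference of the 2 responses, which favours opposite signs, so this share describes the called set. A sign counts at any size, as for *RBOHD*, with fitted responses of -0.03 in line 308 and 0.82 in Col-0. The genotypes differed more on LN than on 1/2 MS for 604 of the 902 (67.0%, against 59.6% of all tested), so that for the other 298 the larger gap was on the standard medium. Without Col-0 LN replicate 5, the response was larger in Col-0 for 1744 of 2734 (63.8%, against 55.5% of all tested), opposite in sign for 1524 (55.7%, against 32.2%) and the gap larger on LN for 2131 (77.9%, against 63.8%).

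The number called depended on single libraries. Leaving out 1 library at a time gave 386 (without line 308 LN replicate 3) to 911 transcripts (without Col-0 1/2 MS replicate 1) for 15 of the 16 libraries, and 2734 without Col-0 LN replicate 5, which included all 902. The number fell by over 1.5 times without line 308 LN replicate 2 (570) or 3, without line 308 1/2 MS replicate 3 (392) or 4 (484), without Col-0 LN replicate 1 (528), 2 (562), 3 (509) or 4 (497), and without Col-0 1/2 MS replicate 2 (540) or 4 (510). In every one of these fits 242 of the 902 passed. Of the 59 called transcripts chosen by rule for description below, 23 passed in each of the 16 leave-one-out fits and 20 in fewer than 8 of them, and for each transcript that did not pass in each, the number of leave-one-out fits that lost the call is given with the highest adjusted p among them. The fit with all groups held every Arabidopsis library and pooled the 1/2 MS libraries of a line with and without AMF. Its reference was therefore of mixed AMF state, unlike that of the main fit. Only 39 of the 59, and 608 of the 902, were called in it, and its adjusted p is given for the other 20. With the 13 libraries whose names carry the prefix, which leaves 2 line 308 and 3 Col-0 libraries on LN, edgeR called 0 transcripts (2527 at an unadjusted p under 0.05, smallest adjusted p = 0.0598), and 1128 once Col-0 LN replicate 5 was also left out. With the 1/2 MS libraries that received no AMF as the reference, the number was 20. Without Col-0 LN replicate 5 this number was 1051. In those 4 fits 0, 46, 2 and 29 of the 59 passed.

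**Figure D2:**
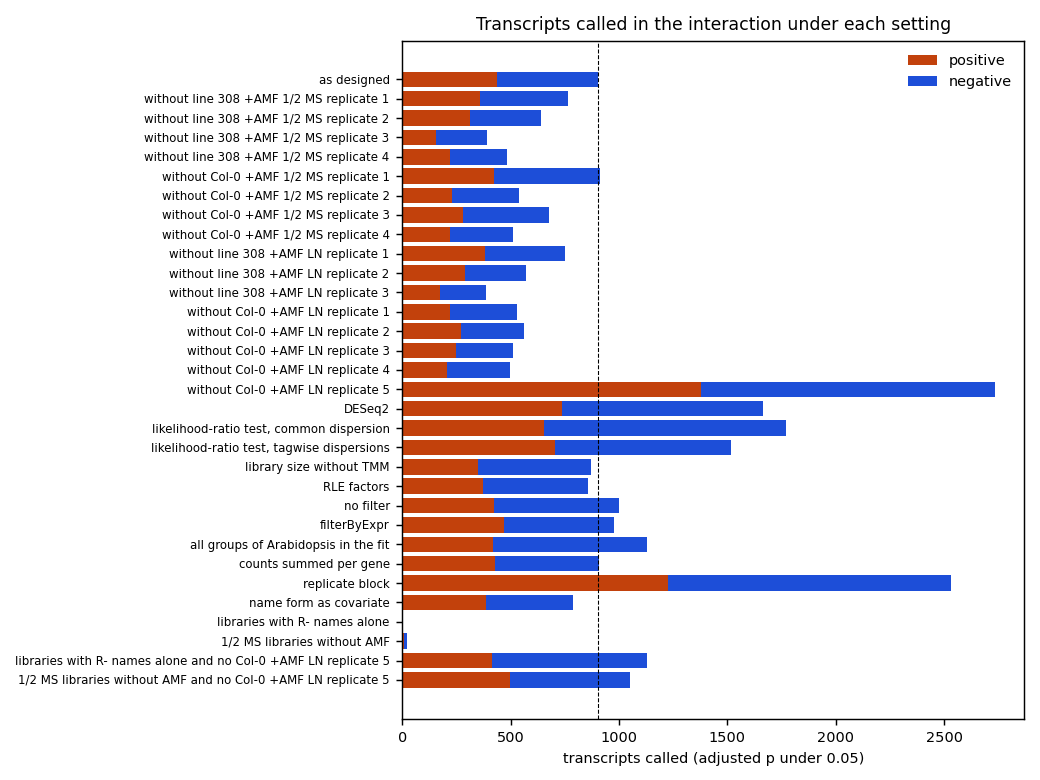
Number of transcripts with an adjusted p under 0.05 in the interaction (horizontal axis) under each setting, split into positive (orange) and negative (blue) differences, with a dashed line at the 902 of the fit as designed. The bar without Col-0 LN replicate 5 reaches 2734, while the bars for the libraries with the name prefix alone (0) and the 1/2 MS libraries without AMF (20) are at or near 0.

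The largest negative differences included transporters and a phosphatase whose mean was highest in Col-0 on LN. *PAP25* (AT4G36350, Araport11 on TAIR10, chromosome 4, 17173737-17175857, minus strand) encodes a purple acid phosphatase, an enzyme class that releases phosphate from organic compounds. It had no count in the 4 Col-0 1/2 MS libraries and 6.32, 5.6, 8.34, 9.06 and 5.92 CPM in Col-0 on LN. In line 308 it was at 0, 0.0698, 0.140 and 0.278 CPM on 1/2 MS and at 0.142, 0.347 and 0.934 CPM on LN. All 5 Col-0 LN libraries thus lay above every other library. The Col-0 level on LN was at least 33.2-fold higher than a floor of 3 counts per library, and the fitted interaction of -7.76 (SE 1.57, adjusted p = 0.0174) depends on the prior count. The call was lost in 1 leave-one-out fit, at 0.0683 without line 308 1/2 MS replicate 4.

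*CHX9* (AT5G22910, chromosome 5, 7660927-7663829, minus strand) belongs to the cation/H+ exchanger family. Its Col-0 levels were 0.341, 0.481, 0.0712 and 0.528 CPM on 1/2 MS and 7.50, 7.39, 4.06, 3.04 and 1.93 CPM on LN. Line 308 had 1.25, 2.16, 1.05 and 1.67 CPM on 1/2 MS and 1.42, 1.53 and 0.574 CPM on LN. The Col-0 groups did not overlap and the line 308 groups did, while Col-0 LN replicate 5 lay below line 308 1/2 MS replicate 2. The interaction was -4.10 (SE 0.73, adjusted p = 0.0094) and passed in all 16 fits that leave out 1 library.

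*AT2G04050* (chromosome 2, 1337180-1339468, minus strand), annotated as a MATE efflux protein, had 2.73, 3.3, 4.13 and 4.15 CPM in Col-0 on 1/2 MS and 233, 275, 323, 352 and 116 CPM on LN. In line 308 it had 3.13, 7.26, 4.75 and 27.9 CPM on 1/2 MS and 60.1, 43 and 36.05 CPM on LN. Every LN library of either genotype lay above every 1/2 MS library, and the gap was wider in Col-0 (interaction -4.08, SE 0.74, adjusted p = 0.00964). *ABCB11*, a P-glycoprotein of the ABC transporter family, had means of 7.81 ± 3.61 CPM (SD, n = 5) on LN and 2.02 ± 0.79 CPM (n = 4) on 1/2 MS in Col-0, and all errors of means below are likewise SD over the libraries of the group. In line 308 its means were 0.943 ± 0.116 CPM (n = 3) and 3.17 ± 0.419 CPM (n = 4), an order opposite to that in Col-0 (interaction -3.69, SE 0.60, adjusted p = 0.00697). Col-0 LN replicate 5, at 2.204 CPM, lay below all line 308 1/2 MS libraries.

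The receptor-like protein gene *RLP15* was barely detected outside Col-0 on LN. It had 4.66, 3.80, 2.99, 4.32 and 1.24 CPM there, 0.278 to 0.567 CPM in line 308 on LN, and 0 to 0.139 CPM in all 8 libraries on 1/2 MS, which are at most 2 counts each. Its interaction of -4.83 (SE 1.34, adjusted p = 0.0464) depends on those few counts and was lost in 14 of the 16 fits that leave out 1 library, with an adjusted p of up to 0.103 without line 308 1/2 MS replicate 1. *AT5G22390*, annotated as FANTASTIC FOUR-like, had 2.88 ± 1.59 CPM in Col-0 on LN and means of 0.482 to 0.784 CPM in the other 3 groups (interaction -3.21, SE 0.72).

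In another set of large negative differences the mean was lowest in line 308 on LN. The transcript AT1G01040.1 of *DCL1*, the Dicer-like enzyme of microRNA processing, had 0, 0.278 and 0.144 CPM in line 308 on LN and means of 1.2 to 1.59 CPM in the other groups. Its interaction was -3.36 (SE 0.85, adjusted p = 0.0324), and the call was lost in 8 leave-one-out fits, up to 0.0776 without line 308 LN replicate 3. For AT5G41790.2 of *CIP1*, which encodes a COP1-interacting coiled-coil protein, line 308 had 0.592 ± 0.359 CPM on LN and 3.33 ± 0.763 CPM on 1/2 MS, against 4.56 ± 2.29 and 2.91 ± 0.541 CPM in Col-0 (interaction -3.12, SE 0.57). Likewise AT1G14190.2, annotated as a GMC oxidoreductase, was at 0.165 ± 0.0434 CPM in line 308 on LN and at means of 1.31 to 1.62 CPM elsewhere (interaction -3.03, SE 0.56). For AT1G11540.2, annotated as a TauE/SafE family exporter, line 308 had 0.638, 0.625 and 0.359 CPM on LN and 1.59 ± 0.380 CPM on 1/2 MS, against 1.88 ± 0.774 and 0.720 ± 0.413 CPM in Col-0, so that line 308 on LN overlapped with Col-0 on both media (*AT1G11540*, interaction -2.90, SE 0.62, and an adjusted p of 0.171 with all groups). These 4 are single transcripts of genes with 2 annotated transcripts, and reads shared between transcripts were not counted. The same limit holds for *AKT1*, *SUS4*, *EIL3* and *FAR5* (2 annotated transcripts each) and for *ABCB11* and *AT3G22121* (3 each). Their values are likewise those of 1 transcript and not of the whole gene. With counts summed per gene the interactions were -3.36 for *DCL1*, -3.12 for *CIP1*, -3.04 for *AT1G14190* and -2.83 for *AT1G11540*. Shared reads are missing from these sums as well, so the sums do not check the level of the whole gene.

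For 2 further genes the larger gap was on 1/2 MS, where line 308 was high. *AT4G33710*, of the family of pathogenesis-related protein 1, had 45.2, 44.7, 34.2 and 12.2 CPM in line 308 on 1/2 MS against 0.546, 3.3, 2.63 and 2.11 CPM in Col-0. On LN the ranges met, at 9.37 to 29.4 CPM in line 308 and 7.78 to 10.8 CPM in Col-0 (interaction -3.10, SE 0.62, adjusted p = 0.0136). *AT4G05380*, annotated as a P-loop nucleoside triphosphatase, had 2.70 ± 0.602 CPM in line 308 and 0.174 ± 0.116 CPM in Col-0 on 1/2 MS (interaction -3.48, SE 0.59). It is also 1 of the 11 transcripts of the genotype check.

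The largest positive differences were mostly found where Col-0 on 1/2 MS was high. *TT19* (AT5G17220, chromosome 5, 5658416-5659661, plus strand) encodes the glutathione S-transferase needed for anthocyanin storage in the vacuole. Col-0 had 2.39, 2.2, 5.19 and 2.26 CPM on 1/2 MS and 0.868, 0.691, 0.641, 2.34 and 0.551 CPM on LN. Line 308 had 0.139, 0.209, 0.0699 and 0.139 CPM on 1/2 MS, which is at most 3 counts per library, and 0.567, 0.139 and 1.15 CPM on LN. The interaction of 3.63 (SE 0.92, adjusted p = 0.0322) rests on these few counts and was lost in 9 leave-one-out fits, up to an adjusted p of 0.157 without line 308 LN replicate 3, and at 0.345 with all groups. The long non-coding RNA *AT3G22121* had the same order, with 0.0872 ± 0.0669 CPM in line 308 and 1.82 ± 0.264 CPM in Col-0 on 1/2 MS (interaction 3.05, SE 0.86), and its call was lost in 13 leave-one-out fits, up to an adjusted p of 0.129 without line 308 LN replicate 3, and at 0.326 with all groups.

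*SLAH1* (AT1G62280, chromosome 1, 23007044-23008610, minus strand), a homologue of the anion channel SLAC1 that takes part in chloride loading into the xylem, was lower on LN than on 1/2 MS in every library. Col-0 had 125, 67.5, 85.5 and 64.9 CPM on 1/2 MS and 0.237, 0.484, 0.0712, 0.283 and 1.17 CPM on LN. Line 308 had 75.1, 56.4, 39.6 and 54.0 CPM on 1/2 MS and 1.28, 5.14 and 1.29 CPM on LN. On LN all 3 line 308 libraries lay above all 5 of Col-0 (interaction 3.08, SE 0.69, adjusted p = 0.0208). *SLAH1* lost its call in 1 leave-one-out fit, at 0.103 without line 308 LN replicate 2. The defensin gene *PDF1.4* had 2.89 ± 0.594 CPM in Col-0 on 1/2 MS and 0.376 ± 0.354 CPM on LN, against 1.15 ± 0.669 and 0.943 ± 0.221 CPM in line 308. Its interaction was 2.60 (SE 0.74, adjusted p = 0.0488). *PDF1.4* lost its call in 13 leave-one-out fits, up to 0.124 without line 308 LN replicate 3.

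*CCL* (AT3G26740, chromosome 3, 9827682-9828917, plus strand), the CCR-LIKE gene whose transcript is known to cycle with the clock, had 57.4, 60.5, 76.9 and 94.5 CPM in Col-0 on 1/2 MS. The other 12 libraries lay far below, at 18.2 to 26.9 CPM in line 308 on 1/2 MS, 10.7 to 24.3 CPM in line 308 on LN and 5.68 to 19.4 CPM in Col-0 on LN. The interaction was 2.30 (SE 0.42, adjusted p = 0.00985) and passed in all 16 fits that leave out 1 library. The leucine-rich repeat gene *AT2G15880* had a like pattern, with 30.4, 27.3, 43.6 and 58 CPM in Col-0 on 1/2 MS, 8.76 to 13.5 CPM in line 308 on 1/2 MS and 3.42 to 6.27 CPM in all LN libraries (interaction 2.2, SE 0.34, adjusted p = 0.00674). *AT5G54585*, of unknown function, had 4.68 ± 1.12 CPM in Col-0 on 1/2 MS and means of 0.954 to 1.78 CPM in the other groups.

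Of the remaining large positive differences, *AT5G35935* stood out because line 308 on LN was the high group, with 7.52, 12.5 and 7.25 CPM against 0.474 to 1.93 CPM in Col-0 on LN and 0.754 to 5.43 CPM on 1/2 MS (interaction 2.57, SE 0.61, adjusted p = 0.0244). *AT5G35935* lost its call in 3 leave-one-out fits, up to 0.0575 without line 308 LN replicate 2. The PLATZ transcription factor gene *AT3G60670* had an interaction of 2.31 (SE 0.43) and *AT1G52343*, of unknown function, of 2.35 (SE 0.52), and both passed in all 16 fits that leave out 1 library. *AT1G14960*, annotated as a lipid transport superfamily protein, had an interaction of 2.07 (SE 0.43, lost in 1 leave-one-out fit, at an adjusted p of 0.0562 without line 308 LN replicate 3), and the ubiquitin-domain gene *AT1G16960* one of 2.48 (SE 0.65). *AT1G16960* lost its call in 10 leave-one-out fits, up to an adjusted p of 0.11 without line 308 LN replicate 1. The interaction of *AT5G54585* was 2.12 (SE 0.45). *AT5G54585* lost its call in 1 leave-one-out fit, at an adjusted p of 0.0531 without line 308 LN replicate 2.

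Gene lists are read against the 5.33% called among all transcripts, and against 16.2% without Col-0 LN replicate 5. The lists and their members were chosen with earlier results of these data known, so their shares are descriptions and not independent support. Among 41 genes of the phosphate starvation response, 36 were tested, 4 (11.1%) were called (1 positive, 3 negative) and the median interaction was -0.47, against 0.02 over all transcripts. Without that library 10 (27.8%) were called, 9 of them negative. *PHT1;9* (AT1G76430, chromosome 1, 28678935-28682062, minus strand), a high-affinity phosphate transporter of the root, had 10.2, 7.42, 11.2 and 6.63 CPM in Col-0 on 1/2 MS and 74.0, 80.6, 85.6, 84.7 and 67.8 CPM on LN. Line 308 had 13.2, 13, 12.2 and 11.7 CPM on 1/2 MS and 54.3, 42.2 and 56.6 CPM on LN. Line 308 thus lay above Col-0 on 1/2 MS and below it on LN, with no overlap on either medium (interaction -1.11, SE 0.20, adjusted p = 0.00962, called in all 16 fits that leave out 1 library, and lost at 0.0626 with all groups).

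*PHT1;1* (AT5G43350, chromosome 5, 17399769-17402158, minus strand), the main phosphate transporter of the root, had 1084, 638, 959 and 572 CPM in Col-0 on 1/2 MS and 2305, 2311, 2735, 2479 and 1583 CPM on LN. Line 308 had 1157, 839, 1301 and 942 CPM on 1/2 MS and 1332, 1539 and 1257 CPM on LN. The media did not overlap in Col-0 and overlapped in line 308 (interaction -1.11, SE 0.29, adjusted p = 0.0339). *PHT1;1* lost its call in 10 leave-one-out fits, up to 0.0799 without line 308 LN replicate 3, and at 0.0927 with all groups. *PHT1;1* has near-identical paralogs and reads could be split between them, so its level is uncertain.

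*NPC4*, the phospholipase C that hydrolyses membrane phospholipids under phosphate starvation, had 577 ± 103 CPM in Col-0 and 318 ± 105 CPM in line 308 on LN, with 31.5 ± 3.89 and 35.5 ± 4.38 CPM on 1/2 MS (interaction -1.03, SE 0.26, adjusted p = 0.0315). *NPC4* lost its call in 10 leave-one-out fits, up to 0.0656 without line 308 1/2 MS replicate 4. *PHO2*, the E2 conjugase that marks phosphate transporters for degradation, was the 1 called member with a positive difference. Its levels were 991, 1688, 1442 and 1525 CPM in Col-0 on 1/2 MS and 451 to 547 CPM on LN, against 882 to 1304 and 535 to 603 CPM in line 308 (interaction 0.73, SE 0.20, adjusted p = 0.0461). *PHO2* lost its call in 13 leave-one-out fits, up to 0.106 without line 308 1/2 MS replicate 3, and at 0.0958 with all groups. *PAP25* was not on the list. *SPX3*, an inhibitor of PHR1, and *PHF1*, which helps transporters leave the endoplasmic reticulum, did not pass, with interactions of -1.57 (SE 0.47, adjusted p = 0.0571) and -0.48 (SE 0.14, adjusted p = 0.051).

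**Figure D3:**
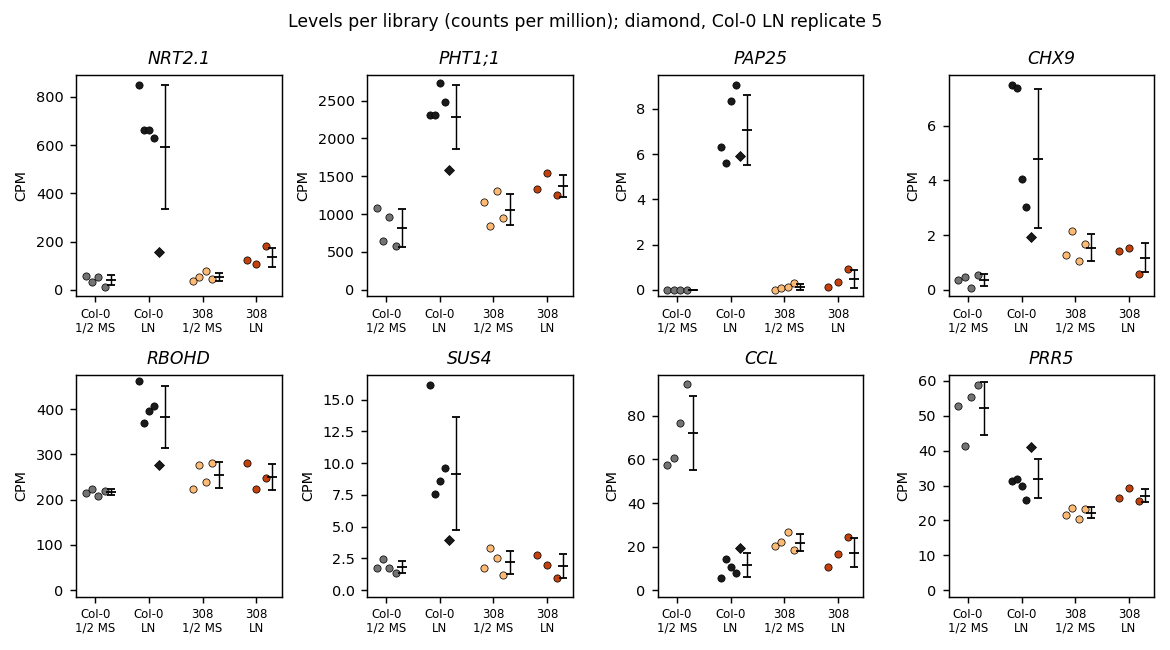
CPM in each library of 8 genes (vertical axes), by genotype and medium (horizontal axes), with the mean and SD of each group beside the points. In NRT2.1, PHT1;1, PAP25, CHX9, RBOHD and SUS4 the Col-0 LN libraries are the high group, and in CCL and PRR5 the Col-0 1/2 MS libraries are. The diamond, Col-0 LN replicate 5, lies towards line 308 in most of the plots.

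The stretches upstream of some called genes are shown to let the reader see motifs that known regulators of starvation and of the clock bind. The motifs searched, on both strands of the 300 bases before the transcript start, were P1BS (GNATATNC, its own reverse complement), which PHR1 binds, the evening element (AAAATATCT) of clock-controlled genes and the core of the W-box (TTGAC), which WRKY factors bind. P1BS was found upstream of 6.69% of 16401 tested genes, 6.70% of the 433 called positive and 7.07% of the 467 called negative genes. For the evening element the shares were 2.77%, 4.16% and 3.0%, and for the W-box core 50.8%, 48.5% and 61.5%. Among the genes called without Col-0 LN replicate 5, P1BS was upstream of 5.6% of the positive and 8.08% of the negative genes, the evening element of 3.86% and 2.52%, and the W-box core of 47.5% and 59.7%. The stretches follow from TAIR10.1, 5′ to 3′ on the strand of the gene, with P1BS and the evening element or its reverse complement in capitals. *PAP25* (chr4:17175858-17176157, minus strand) and *NPC4* (chr3:845097-845396, minus strand) are shown for P1BS, and *PRR5* (chr5:8358547-8358846, minus strand) and *FKF1* (chr1:25508339-25508638, plus strand), the called clock genes, for the evening element. None of the stretches shown overlaps an annotated exon. No P1BS was found upstream of *PHT1;9*, *PHT1;1* and *PHO2*, the other called members of the phosphate list. Of the 300 bases before *PHT1;9*, however, 279 lie in an annotated exon. Stretches that overlap annotated exons were also kept in the shares above.
PAP25: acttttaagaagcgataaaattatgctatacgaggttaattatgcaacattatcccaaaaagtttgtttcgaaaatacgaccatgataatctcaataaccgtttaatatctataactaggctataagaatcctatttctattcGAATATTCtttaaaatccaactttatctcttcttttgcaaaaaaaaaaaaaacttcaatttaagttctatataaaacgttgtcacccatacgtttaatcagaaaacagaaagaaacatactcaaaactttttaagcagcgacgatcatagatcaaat
NPC4: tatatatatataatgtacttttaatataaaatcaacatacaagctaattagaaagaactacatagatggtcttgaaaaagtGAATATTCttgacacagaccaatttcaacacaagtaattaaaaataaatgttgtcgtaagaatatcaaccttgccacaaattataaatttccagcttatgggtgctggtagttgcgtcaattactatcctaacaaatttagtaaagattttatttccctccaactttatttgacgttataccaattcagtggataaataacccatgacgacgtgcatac
PRR5: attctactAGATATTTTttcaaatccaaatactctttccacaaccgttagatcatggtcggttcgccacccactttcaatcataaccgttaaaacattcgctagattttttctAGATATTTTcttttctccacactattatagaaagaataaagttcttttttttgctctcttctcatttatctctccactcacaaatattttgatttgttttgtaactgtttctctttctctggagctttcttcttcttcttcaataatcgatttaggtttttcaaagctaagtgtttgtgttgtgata
FKF1: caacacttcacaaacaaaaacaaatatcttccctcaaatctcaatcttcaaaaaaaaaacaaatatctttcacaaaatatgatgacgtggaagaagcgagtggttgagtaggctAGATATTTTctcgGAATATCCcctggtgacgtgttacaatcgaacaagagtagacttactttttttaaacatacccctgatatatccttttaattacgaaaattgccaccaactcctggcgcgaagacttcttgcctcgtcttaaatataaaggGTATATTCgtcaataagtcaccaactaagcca
P1BS starts 157 bases before the start of *PAP25* and 219 bases before that of *NPC4*, and *FKF1* holds it at 173 and 32 bases before the start. The evening element starts 292 and 187 bases before the start of *PRR5* and 186 bases before that of *FKF1*. Among the named genes, the evening element also lay upstream of *CCL* and *AT1G52343* (positive) and of *F6H1*, *WRKY29*, *ABCG2*, *AT4G33710* and *AT4G05380* (negative). P1BS also lay upstream of *LOX4* (negative) and of *LBD18*, *AT3G22121* and *AT1G14960* (positive). A match is a description of the letters and was not tested for binding.

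Nitrogen genes showed differences in both directions. Of 44 genes of nitrogen uptake and assimilation, 33 were tested and 4 (12.1%) were called (2 positive, 2 negative), with a median of -0.23 (-0.27 with a gene at 0 in a whole group set to its bound). Leaving out Col-0 LN replicate 5 gave 12 (36.4%), 3 positive and 9 negative. *NRT2.1* (AT1G08090, chromosome 1, 2524023-2526322, plus strand), the main high-affinity nitrate transporter of the root, had 58.6, 30.8, 54.6 and 13.1 CPM in Col-0 on 1/2 MS and 850, 662, 661, 628 and 158 CPM on LN. Line 308 had 37.5, 54.8, 76.0 and 45.5 CPM on 1/2 MS and 122, 105 and 180 CPM on LN. Of the Col-0 LN libraries, replicate 5 alone fell within the range of line 308 on LN. The interaction was -2.57 (SE 0.63, adjusted p = 0.029), lost in 6 leave-one-out fits, with an adjusted p of up to 0.0678 without line 308 LN replicate 2, and 0.00161 without Col-0 LN replicate 5.

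*NRT1.5*, which loads nitrate into the xylem, had 2415, 2479, 2557 and 3182 CPM in Col-0 on 1/2 MS and 581, 572, 615, 665 and 880 CPM on LN, against 2157, 1582, 1611 and 1265 CPM and 648, 1253 and 997 CPM in line 308. Its interaction was 1.23 (SE 0.27, adjusted p = 0.0193). *NRT1.5* lost its call in 1 leave-one-out fit, at 0.051 without line 308 LN replicate 2. *GDH1*, a subunit of the glutamate dehydrogenase that releases ammonium from glutamate, had 357 ± 84.1 CPM in Col-0 and 249 ± 14.8 CPM in line 308 on 1/2 MS, and 125 ± 9.41 and 168 ± 17.6 CPM on LN (interaction 0.95, SE 0.18, adjusted p = 0.00985). *G6PD3*, a plastid enzyme that supplies reductant for nitrite reduction, had 98.1 ± 22.4 CPM in Col-0 and 66.3 ± 3.51 CPM in line 308 on LN, with 55.3 ± 1.34 and 70.2 ± 8.86 CPM on 1/2 MS (interaction -0.91, SE 0.20, adjusted p = 0.0176). Both *GDH1* and *G6PD3* passed in all 16 fits that leave out 1 library. The nitrate reductase *NIA1* and the nitrite reductase *NIR1* did not pass, with interactions of -0.64 (SE 0.20, adjusted p = 0.0731) and -0.65 (SE 0.19, adjusted p = 0.0558).

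The transcript with the smallest p of all tested, named after its values were seen, was *AT3G21670*, annotated as a member of the major facilitator superfamily. Its mean was 59.5 CPM in Col-0 and 18.9 CPM in line 308 on LN, and 16.3 and 19.6 CPM on 1/2 MS (interaction -1.93, SE 0.25, adjusted p = 0.0046).

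The called genes of potassium, iron and sulfur nutrition had negative differences. Of 10 potassium uptake genes 8 were tested, and 1 was called with a median of -0.52. With Col-0 LN replicate 5 left out, 3 were called, 1 of them positive. The called member was *AKT1* (AT2G26650, chromosome 2, 11331850-11336738, minus strand), the inward potassium channel of the root, which had 9.29, 11.7 and 7.32 CPM in line 308 on LN and 19.1 to 26.9 CPM on 1/2 MS. Col-0 had 18.6 to 25.8 CPM on 1/2 MS and 35.3, 27.3, 33.5, 27.1 and 13.9 CPM on LN (interaction -1.47, SE 0.33, adjusted p = 0.0193). *AKT1* lost its call in 1 leave-one-out fit, at 0.056 without line 308 LN replicate 3. All 3 line 308 LN libraries lay below every other library.

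Of 27 genes of iron uptake and coumarin synthesis 23 were tested, and 3 (13%) were called, all negative, with a median of -0.26 (-0.17 with genes at 0 in a whole group at their bound). In the fit lacking Col-0 LN replicate 5, 4 (17.4%) were called. *F6H1*, the enzyme that commits phenylpropanoids to coumarins, had 427 to 599 CPM in Col-0 on 1/2 MS against 879 to 1146 CPM in line 308, while on LN the genotypes spanned 936 to 1516 and 998 to 1353 CPM (interaction -0.97, SE 0.21, adjusted p = 0.0176, and lost at 0.265 with all groups). *S8H*, which makes the iron-mobilizing coumarin fraxetin, had 52.8 ± 14.1 CPM in Col-0 and 21.8 ± 1.82 CPM in line 308 on LN, and 22.1 ± 2.85 and 36.9 ± 22.2 CPM on 1/2 MS (interaction -2.01, SE 0.50, adjusted p = 0.0301). *S8H* lost its call in 8 leave-one-out fits, up to 0.0683 without line 308 LN replicate 3. *NAS2*, a nicotianamine synthase, had 41.2 ± 20.04 and 24.9 ± 4.15 CPM on LN and 22.5 ± 4.99 and 51.0 ± 13.1 CPM on 1/2 MS, Col-0 first (interaction -1.91, SE 0.47, adjusted p = 0.0283). *NAS2* lost its call in 5 leave-one-out fits, up to 0.0605 without line 308 LN replicate 1. The iron transporter *IRT1* did not pass, with an interaction of -4.19 (SE 1.33, adjusted p = 0.0714).

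Of 16 sulfur deficiency genes 11 were tested and 1 (9.09%) was called, with a median of -0.47. Leaving out Col-0 LN replicate 5 gave 3 (27.3%). The called member was *EIL3*, also known as *SLIM1*, the regulator of the sulfur deficiency response, with 3.86 ± 0.912 CPM in Col-0 and 1.94 ± 0.248 CPM in line 308 on LN and 2.95 ± 0.553 and 3.71 ± 0.464 CPM on 1/2 MS (interaction -1.32, SE 0.29, adjusted p = 0.0199). Of 21 suberin genes 15 were tested and 2 (13.3%) were called, both negative, with a median of -0.23. The number without Col-0 LN replicate 5 was 4 (26.7%). The fatty acyl reductase *FAR5* had 13.6 ± 4.36 CPM in Col-0 and 5.11 ± 0.548 CPM in line 308 on LN, and 12 ± 2.95 and 12.2 ± 2.48 CPM on 1/2 MS (interaction -1.43, SE 0.37, adjusted p = 0.0353). *FAR5* lost its call in 11 leave-one-out fits, up to 0.0811 without line 308 LN replicate 3. The exporter gene *ABCG2* had an interaction of -0.58 (SE 0.15, adjusted p = 0.0353). *ABCG2* lost its call in 11 leave-one-out fits, up to 0.0814 without line 308 LN replicate 3.

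Of 25 immune receptor and early response genes 21 were tested and 5 (23.8%, against 5.33% of all transcripts) were called, all negative. With Col-0 LN replicate 5 left out there were 9 (42.9%, against 16.2%), all negative. The fitted interaction was below 0 for 21 of the 21, with a median of -0.62, against 8160 of all 16925 transcripts, and 16 of the 21 did not pass. The list was chosen with earlier results of these data known, so these numbers are not independent support. *RBOHD* (AT5G47910, chromosome 5, 19397041-19402061, plus strand), the NADPH oxidase of the immune oxidative burst, had 215, 224, 208 and 219 CPM in Col-0 on 1/2 MS and 463, 369, 396, 407 and 276 CPM on LN. Line 308 had 223, 276, 239 and 281 CPM on 1/2 MS and 281, 223 and 247 CPM on LN. The line 308 groups overlapped, while each Col-0 LN library exceeded each Col-0 1/2 MS library, replicate 5 by the least (interaction -0.85, SE 0.18, adjusted p = 0.0167, called in all 16 fits that leave out 1 library).

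*WRKY33*, a regulator of defence against fungi and of camalexin synthesis, had 403 ± 78.5 CPM in Col-0 and 325 ± 50.3 CPM in line 308 on LN, and 156 ± 14.1 and 220 ± 28.7 CPM on 1/2 MS (interaction -0.81, SE 0.20, adjusted p = 0.0321). *WRKY33* lost its call in 8 leave-one-out fits, up to 0.0799 without line 308 LN replicate 3, and at 0.229 with all groups. *PROPEP1*, the precursor of a danger peptide, had 37.1 ± 4.74 and 22.8 ± 2.82 CPM on LN and 12.5 ± 2.39 and 14.1 ± 1.79 CPM on 1/2 MS, again Col-0 first (interaction -0.87, SE 0.21, adjusted p = 0.0246). *PROPEP1* lost its call in 3 leave-one-out fits, up to 0.0604 without line 308 LN replicate 3. *LYK4*, a LysM receptor kinase for chitin, had an interaction of -0.89 (SE 0.24, adjusted p = 0.0385) and *WRKY29* one of -0.66 (SE 0.19, adjusted p = 0.048). Each call was lost in 12 leave-one-out fits, up to 0.084 and 0.107 without line 308 LN replicate 3, and at 0.101 and 0.177 with all groups. The chitin receptor *CERK1* did not pass (interaction -0.50, SE 0.18, adjusted p = 0.0951).

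Among 17 genes of indole glucosinolate and camalexin synthesis 14 were tested and 3 (21.4%) were called, all negative, with a median of -0.58. Leaving out Col-0 LN replicate 5 gave 6 (42.9%). The 3 encode steps of the glucosinolate core, *CYP83B1* (interaction -0.65, SE 0.16), the glucosyltransferase *UGT74B1* (-0.70, SE 0.20) and the sulfotransferase *SOT16* (-0.59, SE 0.16). *CYP83B1* had 838 to 1335 CPM in Col-0 and 781 to 875 CPM in line 308 on LN, and 850 to 907 and 926 to 1085 CPM on 1/2 MS. The call of *CYP83B1* was lost in 4 leave-one-out fits, up to an adjusted p of 0.0683 without line 308 LN replicate 3. That of *UGT74B1* was lost in 13, up to 0.0978 without line 308 LN replicate 1, and at 0.0608 with all groups. That of *SOT16* was lost in 13, up to 0.0879 without line 308 1/2 MS replicate 4, and at 0.0745 with all groups. Of 17 aliphatic glucosinolate genes 11 were tested and 0 were called by edgeR (3 at an unadjusted p under 0.05, and 3 called without Col-0 LN replicate 5), the transporter *GTR2* having the smallest p (interaction -0.65, SE 0.20, adjusted p = 0.0616).

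For the defence hormones, 1 of 22 tested jasmonate genes and 0 of 19 tested salicylic acid genes were called (6 of the latter at an unadjusted p under 0.05). The lipoxygenase *LOX4*, which acts early in jasmonate synthesis, had 30.1 ± 5.90 CPM in Col-0 and 19.98 ± 5.75 CPM in line 308 on LN, and 2.1 ± 0.538 and 4.65 ± 1.21 CPM on 1/2 MS (interaction -1.73, SE 0.34, adjusted p = 0.0126, called in all 16 fits that leave out 1 library). The transcription factor *WRKY54* had the smallest p of the salicylic acid list (interaction -0.90, SE 0.30, adjusted p = 0.0792). The medians of the lists were -0.47 and -0.49, with 5 members of each above 0, and 6 and 4 genes were called without Col-0 LN replicate 5, all negative.

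In the low-oxygen list, all 16 genes were tested, 14 had a negative difference, 1 (6.25%, near the 5.33% of all transcripts) was called and the median was -0.91, with 2 called (12.5%, against 16.2%) without Col-0 LN replicate 5. The called member, *SUS4*, encodes a sucrose synthase induced by low oxygen. It had 16.2, 7.6, 8.55, 9.63 and 3.93 CPM in Col-0 on LN and 0.934 to 3.28 CPM in the 11 other libraries, so that Col-0 on LN did not overlap with any other group (interaction -2.51, SE 0.60, adjusted p = 0.0252). *SUS4* lost its call in 4 leave-one-out fits, up to 0.0677 without line 308 LN replicate 3. Alcohol dehydrogenase *ADH1*, the best known gene of this response, did not pass (interaction -1.17, SE 0.62, adjusted p = 0.263). Of 14 tested genes of the mitochondrial stress response 1 was called, with a median of -0.64. When Col-0 LN replicate 5 was left out, 6 were called. The called member was *CYP81D8*, with 217 ± 50.9 CPM in Col-0 and 187 ± 48.5 CPM in line 308 on LN, and 39.8 ± 2.99 and 70.7 ± 17.7 CPM on 1/2 MS (interaction -1.04, SE 0.29, adjusted p = 0.0458). *CYP81D8* lost its call in 12 leave-one-out fits, up to 0.105 without line 308 LN replicate 3, and at 0.11 with all groups.

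**Figure D4:**
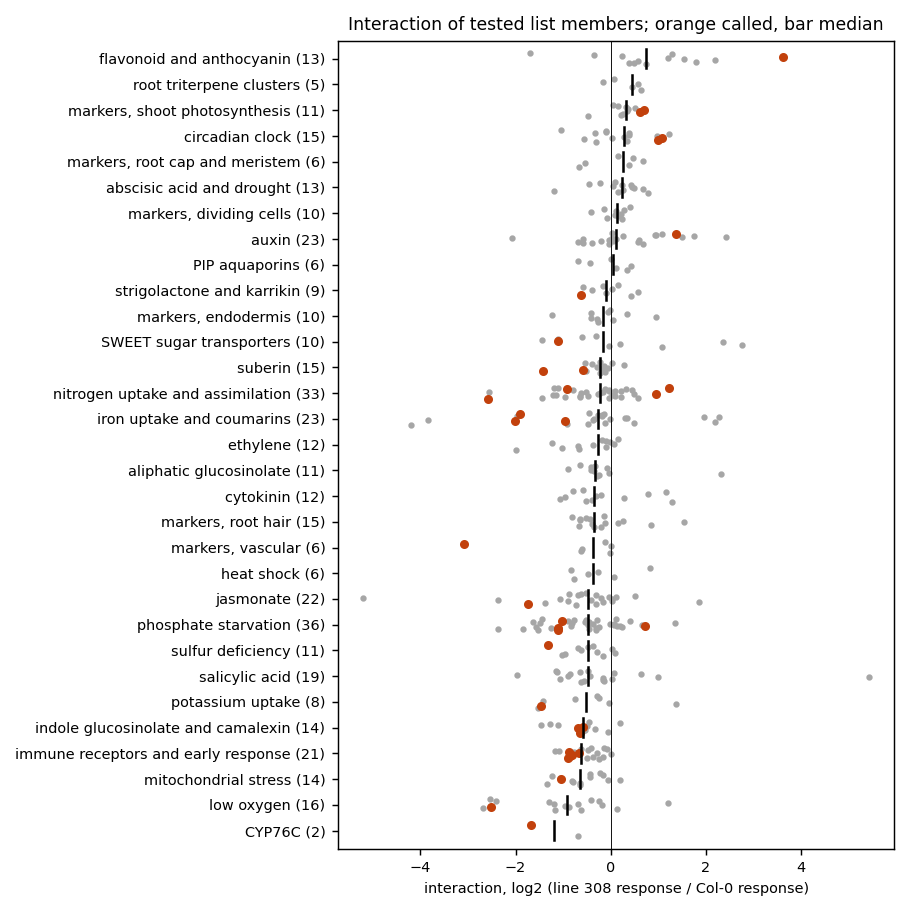
Interaction (horizontal axis, log2) of every tested member of the 31 gene lists, ordered by the list median (black bar), with the number tested in parentheses and called members in orange. The immune list lies wholly at or below 0 with a median of -0.62, and the flavonoid list has the highest median, 0.73. The lists were chosen with earlier results of these data known.

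Lists with called members of positive difference alone were the flavonoid, clock, photosynthesis and auxin lists. Of 18 flavonoid and anthocyanin genes 13 were tested, 11 had a positive difference and *TT19* was the 1 called member (7.69%), with a median of 0.73, and 3 were called without Col-0 LN replicate 5. The flavonoid hydroxylase *TT7* and the regulator *MYB12* did not pass (interactions 1.79, SE 0.57, adjusted p = 0.0708, and 1.29, SE 0.42, adjusted p = 0.0788). Of 21 clock genes 15 were tested and 2 were called, both positive and both acting in the afternoon and evening, with 9 of the 15 above 0 (8762 of all 16925 transcripts were) and a median of 0.27. The clock list had 3 called genes without Col-0 LN replicate 5. The root triterpene list, with 0 called (4 of 5 above 0, median 0.45), and the abscisic acid list, with 0 called (10 of 13 above 0, median 0.25), had positive medians as well.

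*PRR5* (AT5G24470, chromosome 5, 8356204-8358546, minus strand), a pseudo-response regulator that represses morning genes, had 52.9, 41.3, 55.5 and 58.9 CPM in Col-0 on 1/2 MS and 31.3, 31.8, 30.0, 25.8 and 41.0 CPM on LN. Line 308 had 21.6, 23.6, 20.3 and 23.4 CPM on 1/2 MS and 26.4, 29.4 and 25.6 CPM on LN. The order of the media was thus opposite in the genotypes, without overlap in either (interaction 0.99, SE 0.18, adjusted p = 0.00985, called in all 16 fits that leave out 1 library, and lost at 0.218 with all groups). *FKF1*, the blue-light photoreceptor F-box protein of the flowering pathway, had 1.93 ± 0.182 CPM in line 308 and 7.71 ± 1.37 CPM in Col-0 on 1/2 MS, and 6.14 ± 1.49 and 11.6 ± 1.22 CPM on LN (interaction 1.08, SE 0.24, adjusted p = 0.0208). *FKF1* lost its call in 2 leave-one-out fits, up to 0.0649 without line 308 LN replicate 3, and at 0.532 with all groups. Roots were sampled within a set window of the light period, the time of each library is not given, and its part in these values was not tested. *CCA1*, *TOC1* and *GI* did not pass, with interactions of -0.32 (SE 0.26), 0.35 (SE 0.13) and 0.02 (SE 0.10).

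Of 18 photosynthesis genes 11 were tested, 10 had a positive difference and 2 were called, with and without Col-0 LN replicate 5, with a median of 0.32. The light-harvesting protein genes *LHCB4.1* (interaction 0.61, SE 0.12, adjusted p = 0.0131) and *LHCA4* (0.69, SE 0.15, adjusted p = 0.0167) passed in all 16 fits that leave out 1 library and were lost with all groups, at 0.237 and 0.265. *LHCA4* had 349 ± 46.1 CPM in Col-0 and 192 ± 21.7 CPM in line 308 on 1/2 MS, and 130 ± 9.78 and 115 ± 10.5 CPM on LN. For these light-harvesting genes, as for *PRR5* and *FKF1*, the fitted level of line 308 lay below that of Col-0 on both media and by more on 1/2 MS, with gaps of -0.87 on 1/2 MS and -0.18 on LN for *LHCA4*.

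Transport and development genes gave single calls. The sucrose transporter gene *SWEET13* had 43.1 ± 6.90 CPM in Col-0 and 21.7 ± 6.0 CPM in line 308 on LN, and 3.99 ± 0.751 and 4.34 ± 1.38 CPM on 1/2 MS (interaction -1.11, SE 0.31, adjusted p = 0.0492). *SWEET13* lost its call in 12 leave-one-out fits, up to 0.107 without line 308 1/2 MS replicate 4. It was 1 of 10 tested members of its list, of which 3 were called without Col-0 LN replicate 5. *LBO1*, an oxidoreductase of strigolactone synthesis, had 108 ± 9.15 and 72.5 ± 17.2 CPM on LN against 18.5 ± 1.42 and 19.2 ± 2.0 CPM on 1/2 MS, Col-0 first, as the 1 called of 9 tested strigolactone and karrikin genes (interaction -0.62, SE 0.17, adjusted p = 0.0461). *LBO1* lost its call in 13 leave-one-out fits, up to 0.102 without line 308 LN replicate 2, and at 0.085 with all groups. Strigolactones are exuded by roots under phosphate starvation and attract mycorrhizal fungi in host plants.

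*LBD18*, an auxin-induced regulator of lateral root emergence, was the 1 called (4.35%) of 23 tested auxin genes, of which 11 (47.8%) were called without Col-0 LN replicate 5, 9 of them positive. It had 7.43 ± 1.72 CPM in line 308 and 3.09 ± 1.13 CPM in Col-0 on LN, and 5.23 ± 0.781 and 5.62 ± 2.07 CPM on 1/2 MS (interaction 1.37, SE 0.37, adjusted p = 0.0444). *LBD18* lost its call in 13 leave-one-out fits, up to 0.101 without line 308 LN replicate 2. *CYP76C4*, a cytochrome P450 of monoterpenol metabolism, had 16 ± 2.31 CPM in line 308 and 4.61 ± 3.44 CPM in Col-0 on 1/2 MS, and 25.4 ± 5.25 and 23.6 ± 3.07 CPM on LN (interaction -1.68, SE 0.43, adjusted p = 0.0321). *CYP76C4* lost its call in 9 leave-one-out fits, up to 0.0708 without line 308 LN replicate 2, and at 0.463 with all groups. The xylem vessel regulator *VND7* was called for 1 transcript at 1 count per library in line 308 on LN (interaction -3.09, SE 0.80, adjusted p = 0.0344, lost in 10 leave-one-out fits, up to 0.0748 without line 308 LN replicate 3, and at 0.227 with all groups), and with counts summed per gene it was not (interaction -1.93, adjusted p = 0.0832).

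In the other lists edgeR called 0 genes. These were ethylene (12 tested, 4 at an unadjusted p under 0.05), cytokinin (12 and 4), abscisic acid and drought (13 and 2), heat shock (6 and 3), root triterpene clusters (5 and 0), PIP aquaporins (6 and 1), and the markers of root hair (15 and 3), endodermis (10 and 3), root cap and meristem (6 and 0) and dividing cells (10 and 2). Without Col-0 LN replicate 5, 3 ethylene, 2 cytokinin, 2 abscisic acid and 3 heat shock genes and 1 gene of each of these 4 marker lists were called, and 0 of the triterpene and aquaporin lists. In bulk roots, fewer cells of a type and less RNA per cell cannot be told apart. Their members with the smallest p included *HSP70* (interaction -0.77, SE 0.22, adjusted p = 0.0514), *ABI1* (0.46, SE 0.16, adjusted p = 0.0888), the cytokinin response regulator *ARR7* (-1.07, SE 0.36, adjusted p = 0.0834), the ethylene synthesis gene *ACS7* (-1.03, SE 0.36, adjusted p = 0.0954) and the root hair oxidase *RHD2* (-0.64, SE 0.22, adjusted p = 0.089).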

How the data were processed

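The 16 Arabidopsis libraries of line 308 and Col-0 with AMF were analysed, and those without AMF or of line 310 entered only alternatives and the filter. The authors cleaned reads with SOAPnuke, separated organisms with BBSplit and deposited unnormalized counts of read pairs per Araport11 transcript, made with featureCounts in reverse-stranded mode, in which pairs overlapping more than 1 transcript were dropped. The submitters' processing notes also name HISAT2 and DESeq2, with TAIR10 as the build.

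A transcript was tested when any of the 30 Arabidopsis libraries held 10 or more of its counts. The test was that of edgeR 4.0.16 (glmQLFit and glmQLFTest, TMM, R 4.3.3) in a fit on the 4 groups, with Benjamini-Hochberg adjustment over all 16925 transcripts and a threshold of 0.05. SE is the size of the log2 interaction over the square root of the F statistic. Unless named otherwise, adjusted p come from this test. List medians describe the lists, no list was tested as a set, and a list member is the transcript of the gene with the most counts. Named genes are the 12 largest interactions in each direction among called transcripts with 10 or more counts on average and 1 sign in all leave-one-out fits, up to 5 called members of each list by p, and the member with the smallest p of lists with none. Other list members were named for their known role after their values were seen. Members and lists were chosen with earlier results of these data known. In a test on simulated data with 200 changed transcripts of 16925, 57% of 2-fold and 84% of 4-fold interactions were recovered, with 3 false calls among 144. Simulated counts were drawn independently, and no library was shifted over many transcripts as Col-0 LN replicate 5 was. These rates may therefore not hold for the real libraries. DESeq2 1.42.0 was an alternative. Counts by shape of response, list and motif without Col-0 LN replicate 5 were added after seeing the data. Upstream stretches came from TAIR10.1, on which 36632 of 36796 gene identifiers matched.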

Additional observations from a re-analysis of the deposited data

Results flagged for a closer look

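The interaction itself is a difference between 2 genotypes' responses to the same contrast, by its own test, and 902 transcripts passed. Among the named transcripts, 14 of 213 sets of 4 or 5 libraries held a library far from the rest by Dixon's criterion, which chance gives in about 1 in 20 sets, and 4 of the 14 were Col-0 LN replicate 5. For that library *AT1G52343* was at 1.45 CPM (others 0.83 to 0.991), *PHO2* at 547 CPM (451 to 475), *LBD18* at 5.03 CPM (2.07 to 2.92) and *GTR2* at 180 CPM (278 to 296).

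The other flags fell on 7 libraries. *TT19* was at 2.34 CPM in Col-0 LN replicate 4 (others 0.551 to 0.868) and at 5.19 CPM in Col-0 1/2 MS replicate 3 (2.2 to 2.39). In Col-0 1/2 MS replicate 4, *AT5G35935* was at 0.754 CPM (3.06 to 3.3) and *GTR2* at 207 CPM (258 to 265). *RLP15* was at 0.139 CPM in line 308 1/2 MS replicate 1 (0.0695 to 0.0699) and at 0.0687 CPM in Col-0 1/2 MS replicate 2 (others 0). Both *RLP15* flags are differences of a single count, 2 against 1 in line 308 and 1 against 0 in Col-0. *AT4G05380* was at 1.81 CPM in line 308 1/2 MS replicate 1 (2.92 to 3.14) and *LBO1* at 20.6 CPM in Col-0 1/2 MS replicate 1 (17.5 to 18). In line 308 1/2 MS replicate 4, *AT2G04050* was at 27.9 CPM (3.13 to 7.26) and *VND7* at 0.417 CPM (0.839 to 0.907).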

How the results depend on the processing

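The 902 called transcripts (435 positive, 467 negative) became 1665 with DESeq2 (738 and 927), 1769 with a likelihood-ratio test at a common dispersion (652 and 1117), and 1519 with tagwise dispersions (703 and 816). With all groups of Arabidopsis in the fit there were 1131 (419 and 712). That fit pooled the 1/2 MS libraries of a line with and without AMF. Counts by edgeR were 0 with the libraries that carry the R- name prefix alone (2527 at an unadjusted p under 0.05) and 20 (10 and 10) with the 1/2 MS libraries without AMF. Both were recomputed without Col-0 LN replicate 5, alternatives chosen after seeing the data, and gave 1128 (412 and 716) and 1051 (499 and 552). Leaving out 1 library gave 386 to 2734 in all, 154 to 1378 positive and 211 to 1356 negative. Other scalings, filters, the name form as a covariate and counts per gene gave 788 to 998, within 1.5 times of 902. With a replicate block there were 2534 (1228 and 1306). Of 21 pairs of libraries of equal replicate number, 4 had deviations that correlated above 0.1, with a range of -0.122 to 0.202. No pairs of unequal number are set beside them, so whether replicate numbers pair the libraries is not settled. Because replicate 5 exists in Col-0 LN alone, the block also removes that library. For the 59 called named transcripts no alternative turned the sign. *THAD* had the smallest p of the triterpene list (interaction 0.45, adjusted p = 0.653). With 1 library left out, its interaction ranged from -0.13 (without line 308 LN replicate 2) to 0.72. It was -0.031 with all groups in the fit, where the 1/2 MS libraries with and without AMF are pooled. With the 1/2 MS libraries without AMF as the reference it was -0.86 with and -0.98 without Col-0 LN replicate 5. Of the 59, 23 passed in every fit that leaves out 1 library, 39 with all groups in the fit, 51 with the name form as covariate, 55 with the common dispersion, 56 with RLE factors and 57 without TMM. The cause of these shifts was not tested. With 3 to 5 libraries a group, small differences go undetected, and counting error limits transcripts under 1 CPM.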
